A study of Mus musculus with 11 samples.

Results

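The genes described here encode the proteins of the cytosolic ribosome. They were taken from the gene symbols of the table by one naming rule, which keeps Rpl or Rps followed by a number (with the endings a, x, l, al or l1 allowed) and Rpsa, Rplp0, Rplp1 and Rplp2, and leaves out symbols ending in -ps. The rule found 87 of 55228 rows: 33 named for the small subunit, 51 for the large subunit and the 3 acidic stalk genes. GENCODE M21 types 83 of them as protein coding and 4 (Rpl32l, Rpl6l, Rps12l1 and Rps4l) as processed pseudogenes, to which the label does not apply. The rule goes by name alone, so a protein-coding member need not be part of the ribosome: Rpl7l1 is an assembly factor. Of the 87, 86 had enough reads to be tested. Rps12l1, with 1 to 13 reads per library, did not.

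RNA was sequenced in 11 libraries from the mouse embryonic stem cell line EN52.9.1, in which CTCF, the zinc finger protein that anchors chromatin loops, carries an auxin-inducible degron (CTCF-AID). Every group shares that degron line. The untreated EV group (3 libraries) received no auxin and is labelled as wild type. The auxin-treated EV group (2 libraries here, a further replicate being not analysed here) was given 500 µM of the auxin indole-3-acetic acid and is labelled as depleted of endogenous CTCF. The FL group (3 libraries) and the H373R group (3 libraries, titled ZF4) had the same auxin with full-length or H373R CTCF put back. There is no auxin-treated line without the degron among these libraries, so an effect of auxin itself and of CTCF loss cannot be told apart. All libraries come from a single line, and the labels do not say whether replicates were separate cultures, so p-values measure the spread between these libraries only.

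A ribosome is built of a small subunit that reads the mRNA and a large subunit that joins amino acids. The acidic proteins Rplp1 and Rplp2 bind Rplp0 to form the stalk that recruits translation factors. Cells make the proteins in near-equal amounts, and their mRNAs are among the most abundant of a dividing cell. Most of these mRNAs begin with a C followed by a run of pyrimidines, the TOP motif, through which mTOR and Larp1 control their translation and stability. Several genes have a relative of similar sequence (Rpl3l, Rpl7l1, Rpl10l, Rpl22l1, Rpl36al, Rpl39l, Rps27l and the pseudogene Rps4l). The protein-coding relatives can differ from their partners in the tissues where they are used.

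The libraries held 13465241 (FL auxin replicate 2) to 29902246 (EV untreated replicate 1) counted reads. All 8 stem cell markers were at or above a mean of 1 CPM (reads scaled to the library total and its TMM factor) in every group, with a summed level of 5108 to 5573 CPM. Single markers still moved. In FL auxin against EV auxin 3 of the 8 passed as higher and 2 as lower. In H373R auxin against EV auxin 1 passed as higher and 2 as lower. Ctcf mRNA passed the test in no comparison, the smallest edgeR adjusted p being 0.0683 for H373R auxin against EV auxin. The degron acts on the protein, so this mRNA does not check the depletion label. The CTCF put back did not show as a rise in Ctcf counts. The log2 fold change in FL auxin was -0.10 against EV auxin and 0.05 against EV untreated. In H373R auxin it was -0.17 and -0.02. Whether reads from the added CTCF are counted in this row is not given in the sources used here. EV untreated replicate 1 differed from the rest of its group. Across genes, its deviation from the mean of all libraries correlated with GC content at 0.13, against -0.39 and -0.36 in replicates 2 and 3. The values were -0.12 and 0.021 in EV auxin, 0.29, -0.098 and 0.0033 in FL auxin and 0.20 to 0.32 in H373R auxin, given with no p. Replicate 1 thus lay within the range of the auxin libraries, and EV untreated replicates 2 and 3 lay below all of them. Fits without replicate 1 rest on those 2 untreated libraries. Summed primitive endoderm markers ran from 15.4 to 17.8 CPM in EV untreated, 20.1 to 20.2 in EV auxin, 59.5 to 59.9 in FL auxin and 36.5 to 39.9 in H373R auxin libraries. All 6 of them passed as higher in FL auxin and H373R auxin against either EV group. Summed fibroblast markers ran from 58.6 to 66.6 CPM in EV untreated, 56 to 61.1 in EV auxin, 77.0 to 91.9 in FL auxin and 72.4 to 79.4 in H373R auxin. Of 4 tested, 3 passed as higher in FL auxin against EV auxin and 1 in H373R auxin against EV auxin. Summed trophoblast markers ran from 24.5 to 30.2, 29.3 to 30.1, 37.2 to 44.8 and 36.7 to 40.0 CPM in the same order, with 3 and 2 of 4 tested passing as higher in those comparisons. Summed neural markers were at 225 to 266, 269 to 272, 207 to 238 and 233 to 237 CPM. Of these 4 markers, 1 passed as higher and 3 as lower in FL auxin against EV auxin. Against the same group, 1 passed as higher and 2 as lower in H373R auxin. Over all tested genes 11.1% passed as higher and 13.4% as lower in FL auxin against EV auxin. The shares in H373R auxin against EV auxin were 10% and 11.7%. In bulk samples a change in the share of cells of one type and in RNA per cell cannot be told apart.

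Ribosomal protein mRNAs together took 2.83% ± 0.171 of the reads in EV untreated libraries (SD, n = 3; 3.01, 2.81 and 2.67%). In EV auxin they took 2.87% ± 0.164 (SD, n = 2; 2.98 and 2.75%). The FL auxin libraries held 3.15% ± 0.213 (SD, n = 3; 3.16, 3.36 and 2.94%) and the H373R auxin libraries 3.05% ± 0.0682 (SD, n = 3; 3.01, 3.12 and 2.999%). All pairs of groups overlapped except EV auxin (at most 2.98%) and H373R auxin (at least 2.999%). For example, EV untreated replicate 1 lay above FL auxin replicate 3. Small subunit genes took 1.18, 1.21, 1.35 and 1.30% of the reads in the 4 groups in that order, and large subunit and stalk genes 1.65, 1.66, 1.80 and 1.74%. Rows named as ribosomal protein pseudogenes (309 rows, 91 of them tested) held 0.0447 to 0.0531% of the reads in each library.

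Transcript level per length was measured as TPM (transcript abundance scaled for gene length and library total). Of the 87 genes, 80 averaged at least 100 TPM and 19 at least 1000 TPM over the 11 libraries, with a median of 528 TPM. Rpl4, a large subunit protein near the exit tunnel, was the highest at 3982 TPM, then Rpl8 at 3521, the stalk gene Rplp1 at 2647, Rps15 at 2104 and Rps2 at 2002 TPM. The lowest tested genes were Rpl3l at 4.78 TPM, the pseudogenes Rpl32l at 9.58 and Rpl6l at 10.8, Rps10 at 27.0 and Rpl24 at 52.6 TPM. Rps10 and Rpl24 share exonic bases on the same strand with another annotated gene, as do Rpl13a, Rpl19 and Rpl36al, and the counting could split or drop reads there. The order of levels was nearly the same in all libraries: over the 55 pairs of libraries the rank correlation across the 87 genes was 0.990 to 1.000 by Spearman's rho, a description across genes with no p.

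**Figure D1:**
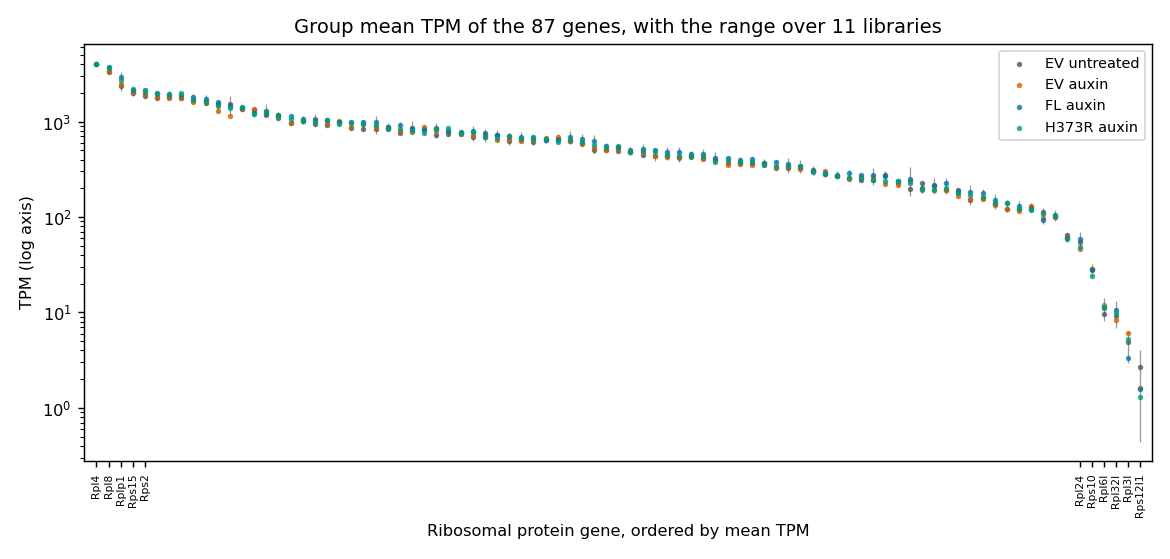
TPM on a log axis for each of the 87 ribosomal protein genes, ordered by mean with the 5 highest and the lowest named, with 1 point per group mean and a line from the lowest to the highest of 11 libraries. By its mean over all libraries Rpl4 stands highest at 3982 TPM, and Rpl3l is the lowest of the tested genes at 4.78 TPM.

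The sequences around 5 transcription starts show what these genes share and where they differ. A RefSeq window of GRCm38.p6 was matched for 64 of the 87 genes (76 windows in all). Each sequence below runs from 60 bases before to 20 bases after the start. Capitals mark the longest run of at least 6 C or T that begins with C within 20 bases of the start, a choice made after the windows were seen. Rplp0 and Rpl22l1 are shown because both were lower in EV auxin, Rpl15 and Rps26 because both were higher with FL, and Rpl3l because it moved the other way.
Rpl15 (chr14:18270967-18271046, minus strand): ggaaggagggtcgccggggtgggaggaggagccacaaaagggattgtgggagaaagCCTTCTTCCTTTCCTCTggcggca
Rps26 (chr10:128626487-128626566, minus strand): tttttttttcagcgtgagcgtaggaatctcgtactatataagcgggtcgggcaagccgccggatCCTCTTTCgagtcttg
Rpl22l1 (chr3:28805448-28805527, plus strand): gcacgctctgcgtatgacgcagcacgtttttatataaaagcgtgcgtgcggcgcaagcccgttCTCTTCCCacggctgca
Rplp0 (chr5:115559407-115559486, plus strand): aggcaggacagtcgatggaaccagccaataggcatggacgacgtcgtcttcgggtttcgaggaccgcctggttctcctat
Rpl3l (chr17:24727766-24727845, plus strand): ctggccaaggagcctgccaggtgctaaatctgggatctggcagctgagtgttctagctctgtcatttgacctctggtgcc
Rpl15, Rps26 and Rpl22l1 hold a run of this kind at the start, and Rplp0 and Rpl3l hold none that begins with C. Such a run was in 60.5% of ribosomal protein windows (46 windows) and in 32.5% of all 32851 windows. The stricter TOP start, a C at the start site or within 3 bases of it with at least 4 C or T after it, was in 35.5% of ribosomal protein windows (27 windows) against 11.5% of all. On either strand of the full 300-base window, the ETS-type motif CCGGAAG was in 34.2% of ribosomal protein windows against 8.86% of all windows, the GC box GGGCGG in 59.2% against 35.7%, and the YY1-type motif (AAGATGG followed by C) in 10.5% against 2.75%. The CTCF core motif (CC, any 3 bases, AGG, any base, GGC) was in 5.26% of them (4 windows) against 3.43% of all. A G-quadruplex pattern (4 runs of at least 3 G, at most 7 bases apart) was in 13.2% of them (10 windows) against 18.6% of all. These are letter matches, not measured binding.

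The first question was what auxin treatment, and with it CTCF depletion, did to these mRNAs in EV cells. A gene is called here when its adjusted p is under 0.05 in edgeR's quasi-likelihood test over 16420 genes. Of 86 ribosomal protein genes, 4 (4.65%) passed and all 4 were lower in EV auxin: Rpl36, Rpl36a, Rplp0 and Rpl22l1. Among all tested genes 20.7% passed, 9.4% as lower. No ribosomal protein gene changed by more than 1.5-fold. Their median log2 fold change was -0.01, with 36 above and 50 below 0, beside 0.01 over all tested genes. Libraries of the 2 groups did not overlap for 2 genes that were higher and 9 that were lower, beside 24.5% and 20.4% of all genes. All 4 called genes encode large subunit or stalk proteins. None of the 32 tested small subunit genes passed in edgeR, where 1 had an unadjusted p under 0.05. The difference between the subunits was not tested. Leaving out EV auxin replicate 2 ended all 4 calls and put the median at 0.04. Without EV untreated replicate 1 the count was 6 (6.98%, against 33.3% of all genes) and the median 0.03. DESeq2 called 4 genes in all.

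Rplp0 (chr5:115559467-115563727, plus strand, GENCODE M21 on GRCm38), the base of the stalk, has no capitals in the sequence printed above. It stood at 687, 683 and 639 CPM in EV untreated and at 578 and 529 CPM in EV auxin, after TMM scaling, so the groups did not overlap. The log2 fold change was -0.27 ± 0.056 (SE, edgeR adjusted p = 0.00248). Leaving out EV auxin replicate 2 ended this call (adjusted p = 0.0637).

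Rpl36 (chr17:56613416-56614243, plus strand), a small protein of the large subunit, read 189.8, 140.6 and 141.8 CPM in EV untreated and 117.4 and 113.4 CPM in EV auxin. EV untreated replicate 1 was far above its group, and both EV auxin libraries lay below all 3 untreated ones. Its log2 fold change was -0.45 ± 0.11 (SE, edgeR adjusted p = 0.00673). Rpl36a (chrX:134585654-134588062, plus strand), which sits at the tRNA exit site, read 128.7, 120.1 and 113.4 CPM against 103.1 and 90.61 CPM, a log2 change of -0.32 ± 0.097 (edgeR adjusted p = 0.0284). Both calls ended without EV auxin replicate 2, Rpl36 at an adjusted p of 0.0811.

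Rpl22l1 (chr3:28805436-28807424, plus strand), the relative of the RNA-binding protein Rpl22, read 102.7, 106.6 and 95.71 CPM in EV untreated and 89.59 and 84.39 CPM in EV auxin. Its log2 fold change was -0.23 ± 0.075 (SE, edgeR adjusted p = 0.0437), close to the threshold, and leaving out any of 4 libraries (EV untreated replicate 2, either EV auxin replicate or FL auxin replicate 1) ended it. On the TPM scale Rpl22l1 was 37.8% ± 1.13 of Rpl22 in EV untreated (SD, n = 3), 33.5% ± 0.231 in EV auxin (n = 2), 33.2% ± 0.225 in FL auxin (n = 3) and 32.7% ± 1.65 in H373R auxin (n = 3). All 3 untreated libraries lay above the other 8.

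Full-length CTCF was next set against EV, both under auxin. Of 86 genes, 25 (29.1%) passed, 24 higher and 1 lower in FL auxin, where 24.5% of all tested genes passed, 11.1% as higher and 13.4% as lower. The median log2 fold change of the ribosomal protein genes was 0.17, with 80 above and 6 below 0, beside -0.01 over all tested genes. The 24 that rose did so by 0.16 to 0.42 on the log2 scale, and only Rpl3l, which fell, changed by more than 1.5-fold. Small subunit genes made up 13 of the 24 (among them Rps2, Rps3, Rps4x, Rps9, Rps13, Rps15a, Rps19, Rps20, Rps27l and Rpsa). The other 11 were Rpl8, Rpl10, Rpl13a, Rpl15, Rpl22, Rpl27a, Rpl30, Rpl32, Rpl36, Rpl36a and Rplp0. The genes tested were 32 of the small subunit and 54 of the large subunit and stalk, and the difference between the subunits was not tested.

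This count moved with single libraries. Without FL auxin replicate 2, in which 82 of 86 genes stood above the EV untreated mean, 7 ribosomal protein genes passed (8.14%, against 19.9% of all genes). Without EV auxin replicate 2, the lower library of its pair, 3 passed (3.49%, against 11.2% of all genes). Without FL auxin replicate 1 it was 14 (16.3%, against 18.2%) and without FL auxin replicate 3 it was 42 (48.8%, against 20.1%). Without EV untreated replicate 1, which enters the shared estimate of the spread, 54 passed (62.8%, against 35.5% of all genes). Removing each library's GC and length trend gave 45 (52.3%, against 36.2%). The median stayed between 0.11, without FL auxin replicate 2, and 0.25 whichever library was left out. Primitive endoderm, fibroblast and trophoblast markers were higher in FL auxin as given above, and their part in the result was not tested.

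**Figure D2:**
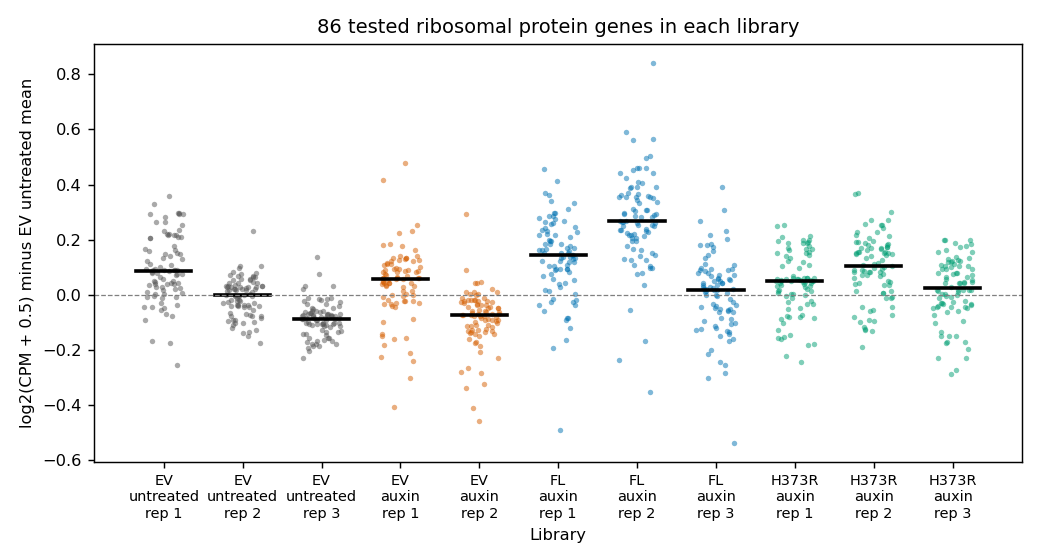
Log2(CPM + 0.5) of the 86 tested ribosomal protein genes minus the EV untreated mean in each of 11 libraries, 1 point per gene, with a bar at the median. The median of FL auxin replicate 2 is highest at 0.27, and FL auxin replicate 3 at 0.019 lies among the EV libraries.

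Rplp0 read 744.0, 748.5 and 694.5 CPM in FL auxin against 578.1 and 528.8 CPM in EV auxin, so every FL library was higher. The log2 fold change was 0.40 ± 0.056 (SE, edgeR adjusted p = 1.6e-04), and it passed under all 26 alternative settings. Rpl36 read 159.0, 164.3 and 139.6 CPM in FL auxin (log2 fold change 0.42 ± 0.11, edgeR adjusted p = 0.0103), all above EV auxin. Rpl36a read 120.9, 139.3 and 103.8 CPM (0.32 ± 0.098, edgeR adjusted p = 0.0255), with replicate 3 just above the higher EV auxin library. Without either EV auxin library the Rpl36 call ended, and the Rpl36a call ended without EV auxin replicate 2 or FL auxin replicate 1 or 2.

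Rps3 (chr7:99477896-99483738, minus strand), which lines the mRNA entry channel of the small subunit, read 1393, 1428 and 1389 CPM in FL auxin and 1205 and 1083 CPM in EV auxin. The groups were well apart, and the log2 fold change was 0.30 ± 0.055 (SE, edgeR adjusted p = 0.00135). Rpl15 (chr14:18267823-18271391, minus strand), a core protein of the large subunit that overlaps Nkiras1 on the opposite strand, read 276.1, 287.9 and 271.3 CPM against 235.3 and 219.4 CPM (0.29 ± 0.055, edgeR adjusted p = 0.00135). Both calls held under all 26 alternatives. Rps13 read 166.8, 191.6 and 145.2 CPM against 141.7 and 129.1 CPM (0.31 ± 0.11, edgeR adjusted p = 0.0475) and lost its call without any one of 7 libraries, among them both EV auxin ones.

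Rpl3l (chr17:24727820-24736143, plus strand), a relative of Rpl3 used mainly in striated muscle, was the exception in direction. It read 1.384, 1.747 and 1.326 CPM in FL auxin, 2.509 and 2.740 CPM in EV auxin and 2.130, 2.105 and 2.204 CPM in EV untreated. Every FL library lay below every other library, on 23 to 66 reads per library. The log2 fold change was -0.86 ± 0.18 against EV auxin (SE, edgeR adjusted p = 0.00284), a call that ended without EV auxin replicate 2. On the TPM scale Rpl3l was 0.507% ± 0.0297 of Rpl3 in FL auxin, 1.04% ± 0.147 in EV auxin, 0.834% ± 0.0725 in EV untreated and 0.874% ± 0.131 in H373R auxin, so Rpl3 carried nearly all of the pair's mRNA in each group.

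**Figure D3:**
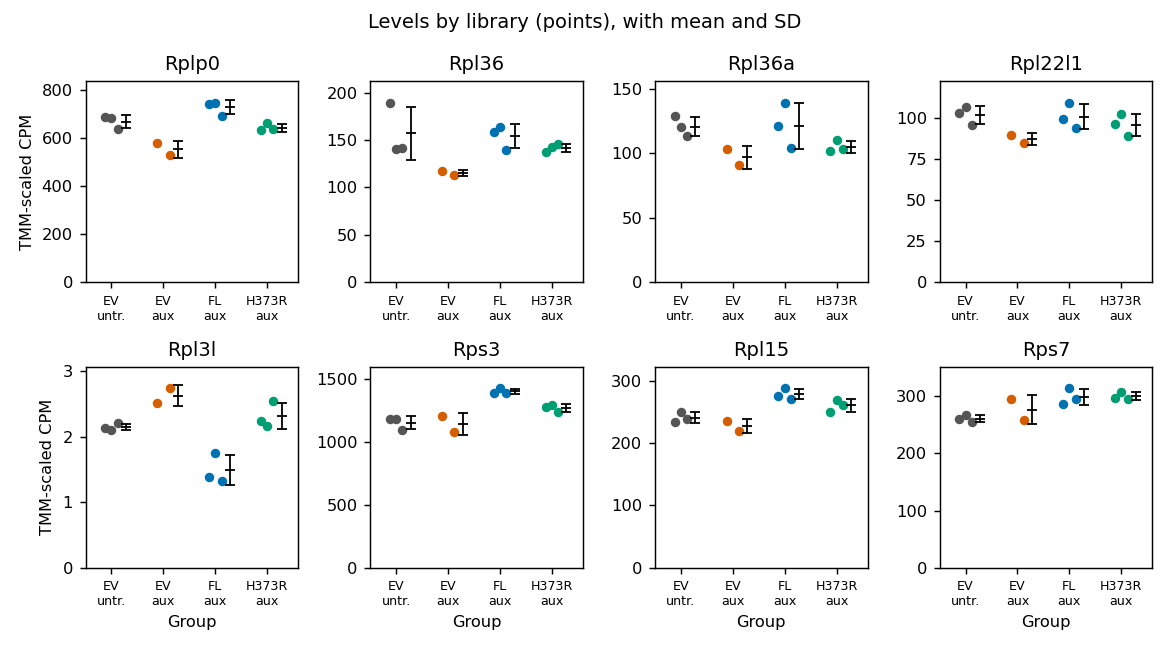
TMM-scaled CPM of named ribosomal protein genes in each library (points) by group, with the mean and SD as bars and each axis starting at 0. Rplp0 is lowest in the 2 EV auxin libraries, and Rpl3l is lowest in the 3 FL auxin libraries.

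H373R CTCF was set against EV in the same way. Of 86 genes 4 (4.65%) passed, all higher, among them Rpl15, Rplp0 and Rps19. Among all tested genes 21.7% passed, 10% as higher. The median log2 fold change was 0.10, with 67 above and 19 below 0, beside 0.00 over all tested genes. Libraries of the 2 groups did not overlap for 30 genes that were higher and 3 that were lower in H373R auxin, shares to be read against 28.4% and 28.6% of all genes. Leaving out EV auxin replicate 2 ended all 4 calls. The median was then 0.02, and without EV auxin replicate 1 it was 0.17. The count was 15 without EV untreated replicate 1 (17.4%, against 33.0% of all genes), 7 without EV untreated replicate 2 (8.14%, against 22.4%) and 2 without H373R auxin replicate 2 (2.33%, against 16.1%). Removing the GC and length trend gave 12 (14.0%, against 31.3%). FL auxin and H373R auxin were compared with the same 2 EV auxin libraries, so the 2 sets of values are not independent.

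Rplp0 read 632.5, 663.3 and 636.7 CPM in H373R auxin, above both EV auxin libraries (log2 fold change 0.22 ± 0.056, edgeR adjusted p = 0.0113). Rpl15 read 249.9, 269.7 and 261.1 CPM against 235.3 and 219.4 CPM (0.20 ± 0.054, edgeR adjusted p = 0.0183). Rps19, the gene most often mutated in Diamond-Blackfan anaemia, read 290.1, 310.7 and 300.4 CPM against 271.2 and 262.4 CPM (0.17 ± 0.057, edgeR adjusted p = 0.0417). All 3 H373R libraries lay above both EV auxin libraries for each of these 3 genes, and each call ended without EV auxin replicate 2. The Rpl15 call also ended without H373R auxin replicate 2, and the Rps19 call without any one of 5 libraries.

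H373R auxin was then compared directly with FL auxin. Of 86 genes 2 (2.33%) passed, 1 higher and 1 lower, where 5.96% of all tested genes did, 3.14% as higher and 2.82% as lower. The median log2 fold change was -0.09, with 9 above and 77 below 0, beside 0.00 over all tested genes. It was -0.02 without FL auxin replicate 2 and -0.15 without FL auxin replicate 3. Without FL auxin replicate 1, H373R auxin replicate 1 or H373R auxin replicate 3 both calls ended and no other gene was called. Without EV untreated replicate 1 the count was 8 (9.30%, against 14.2% of all genes), and with the GC and length trend removed it was 12 (14.0%, against 13.8%). Rpl3l was higher in H373R auxin, at 2.237, 2.170 and 2.539 CPM against 1.384, 1.747 and 1.326 CPM (0.67 ± 0.16, edgeR adjusted p = 0.0225). Rplp0 was lower in H373R auxin (-0.18 ± 0.050, edgeR adjusted p = 0.0458), with no overlap between the groups, and lost its call without any one of 7 libraries. Rpl3l lost its call without FL auxin replicate 1 or 3 or H373R auxin replicate 1 or 3.

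**Figure D4:**
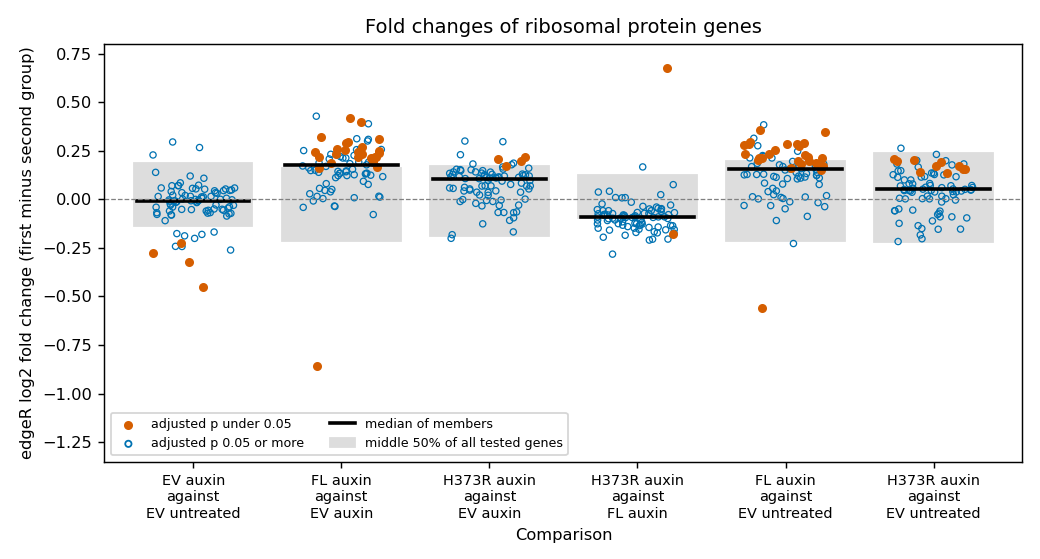
Log2 fold change of the 86 tested ribosomal protein genes in each of 6 comparisons, with filled points for an edgeR adjusted p under 0.05, a bar for their median and a grey box for the middle 50% of all tested genes. The median stands at 0.17 for FL auxin against EV auxin and at -0.01 for EV auxin against EV untreated.

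Both add-back groups were also set against untreated cells. In FL auxin 26 of 86 genes (30.2%) passed, 25 higher and 1 lower, where 36.9% of all tested genes passed, 17.7% as higher and 19.2% as lower. Of 32 tested small subunit genes 15 were higher, and of 54 large subunit and stalk genes 10 were higher. The only gene that fell was Rpl3l (log2 fold change -0.56 ± 0.16, edgeR adjusted p = 0.0137). That call was lost without FL auxin replicate 1 or 3, and in DESeq2 with all libraries (DESeq2 adjusted p = 0.0821). The median log2 fold change was 0.15, with 76 above and 10 below 0, and 0.08 without FL auxin replicate 2. In H373R auxin 10 genes (11.6%) passed, all higher, where 44.4% of all tested genes passed, 22.3% as higher and 22.1% as lower. Small subunit genes were 9 of the 10 (among them Rps2, Rps3, Rps7, Rps9, Rps14, Rps26 and Rpsa). That is 28.1% of the 32 tested small subunit genes, beside 1.85% (1 gene) of the 54 large subunit and stalk genes. The difference between the subunits was not tested in either add-back group. The median there was 0.05, with 65 above and 21 below 0. It was 0.02 without EV untreated replicate 3 and 0.09 without EV untreated replicate 1. The same 3 untreated libraries serve both comparisons. Without EV untreated replicate 1 the counts were 56 (65.1%, against 47.2% of all genes) and 29 (33.7%, against 54.7%). Without EV untreated replicate 3 they were 14 (16.3%, against 29.9%) and 2 (2.33%, against 37.0%). Without FL auxin replicate 1, 2 or 3 the FL count was 17, 12 or 47 (19.8, 14.0 or 54.7%, against 28.9, 32.3 or 31.1% of all genes). After the GC and length trend was removed the counts were 45 (52.3%, against 45.1%) and 20 (23.3%, against 50% of all genes). That setting kept 23 of the 26 FL calls and 5 of the 10 H373R calls, and it turned Rps14 (-0.041) and Rps2 (-0.00705) to the lower side in H373R auxin. Without H373R auxin replicate 1, 2 or 3 the H373R count was 3, 3 or 4 (3.49, 3.49 or 4.65%, against 38.4, 37.8 or 36.8% of all genes).

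Among the small subunit genes, Rps14 read 558.7, 549.3 and 504.9 CPM in EV untreated, 645.6, 687.8 and 631.3 CPM in FL auxin and 603.2, 614.3 and 580.8 CPM in H373R auxin. These 3 groups did not overlap, while EV auxin stood at 627.2 and 541.7 CPM, and the log2 fold change against EV untreated was 0.28 ± 0.058 in FL auxin (SE, edgeR adjusted p = 0.00143). Rps26 (chr10:128624534-128626747, minus strand), a protein at the mRNA exit channel, read 322.3, 298.5 and 275.7 CPM in EV untreated, 361.9, 410.0 and 327.1 CPM in FL auxin and 345.3, 349.6 and 336.9 CPM in H373R auxin. EV auxin replicate 1 was as high, at 350.5 CPM, and replicate 2 was at 294.4 CPM. Its log2 fold change was 0.29 ± 0.080 in FL auxin (edgeR adjusted p = 0.00949, lost without FL auxin replicate 2) and 0.20 ± 0.079 in H373R auxin (edgeR adjusted p = 0.0498, lost without any one of 7 libraries).

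Rps7 (chr12:28630854-28635953, minus strand), which also binds Mdm2, read 259.9, 267.4 and 254.8 CPM in EV untreated, 286.5, 314.2 and 296.1 CPM in FL auxin and 297.5, 308.4 and 296.0 CPM in H373R auxin. Its log2 fold change was 0.21 ± 0.053 in H373R auxin (SE, edgeR adjusted p = 0.00526) and passed under all 26 alternatives, while EV auxin spanned 294.8 and 258.5 CPM. Rpsa, the laminin receptor precursor of the small subunit, rose by 0.19 ± 0.061 in H373R auxin (edgeR adjusted p = 0.0175). That call was lost without EV untreated replicate 3 or H373R auxin replicate 1 or 2.

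Of the stalk genes, Rplp1 and Rplp2 rose in FL auxin against EV untreated. Rplp1 read 359.9, 303.2 and 277.4 CPM in EV untreated and 414.9, 460.7 and 330.6 CPM in FL auxin (log2 fold change 0.36 ± 0.10, edgeR adjusted p = 0.0138). Rplp2 read 320.7, 269.8 and 247.1 CPM against 357.3, 418.0 and 293.6 CPM (0.35 ± 0.11, edgeR adjusted p = 0.0166). For both, FL auxin replicate 3 lay below EV untreated replicate 1, and both calls ended without FL auxin replicate 2 or EV untreated replicate 3. Rplp0 did not pass (0.12, edgeR adjusted p = 0.0644). The difference between the stalk genes was not tested.

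Among the remaining relatives, Rpl7l1, a ribosome assembly factor related to Rpl7, read 217.9, 236.6 and 234.6 CPM in EV untreated and 255.0, 262.8 and 264.4 CPM in FL auxin (log2 fold change 0.18 ± 0.044, edgeR adjusted p = 0.0045). It passed under all 26 alternatives. Rps27l, a p53 target related to Rps27, was higher in FL auxin than in EV auxin (0.24 ± 0.075, edgeR adjusted p = 0.0264), a call lost without either EV auxin library or FL auxin replicate 2. On the TPM scale Rps27l exceeded Rps27: it stood at 159% ± 6.51 of it in EV untreated, 134% ± 5.02 in EV auxin, 142% ± 6.10 in FL auxin and 140% ± 7.62 in H373R auxin. Rpl39l, Rpl36al, Rpl10l and the pseudogene Rps4l passed in no comparison, nor did Rpl4 and Rps15, which are among the highest by TPM.

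Genes around the ribosome were taken from lists of known function and counted in the same fit. Of 20 tested translation factors whose mRNAs carry the TOP motif, 7 were higher and none lower in FL auxin against EV auxin, with a median log2 fold change of 0.17. Among them were Eif3l (0.24, edgeR adjusted p = 0.00218) and Eif3f (0.29, edgeR adjusted p = 0.00279), subunits of an initiation factor. Against EV auxin the H373R group had 5 higher and none lower (median 0.10). Over all tested genes 11.1% were higher and 13.4% lower in FL auxin, and 10% and 11.7% in H373R auxin, shares against which each list here is to be read. Eef2, the elongation factor that moves the ribosome along, rose by 0.26 ± 0.046 there (SE, edgeR adjusted p = 0.00138). Of 24 translation initiation genes, 6 were higher and none lower in FL auxin (median 0.10), among them Eif3d (0.26, edgeR adjusted p = 5.73e-04) and Eif3g (0.37, edgeR adjusted p = 7.29e-04). In H373R auxin 4 were higher and 4 lower.

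Of 77 tested ribosome biogenesis genes, 5 were higher and 13 lower in FL auxin against EV auxin (median -0.02), and 1 was higher and 24 lower in H373R auxin against EV auxin (median -0.10). The counts in this paragraph stand beside the same shares of all tested genes. These were 11.1% higher and 13.4% lower in FL auxin, and 10% and 11.7% in H373R auxin. Ubtf, which opens the ribosomal RNA genes to RNA polymerase I, was lower than in EV auxin in both add-back groups. Its log2 fold change was -0.31 in FL auxin (edgeR adjusted p = 0.00122) and -0.39 in H373R auxin (edgeR adjusted p = 3.12e-04). Mitochondrial ribosomal protein genes (76 tested) had 7 higher and 2 lower in FL auxin with a median of 0.04. The 4 ribosomal protein genes outside the naming rule (among them Rps3a1, Fau and Rack1) passed in no comparison in edgeR, 1 of them having an unadjusted p under 0.05 in FL auxin against EV auxin and 1 in H373R auxin against FL auxin. Differences between the lists were not tested.

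**Figure D5:**
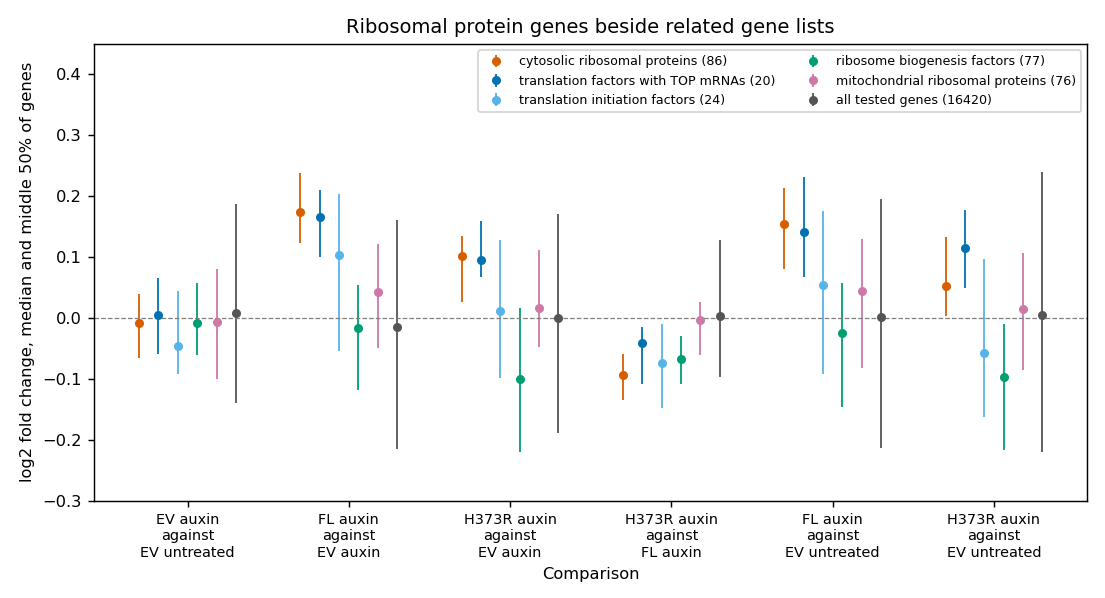
Median and middle 50% of log2 fold changes for the ribosomal protein genes and for related gene lists in 6 comparisons. In H373R auxin against EV auxin the ribosome biogenesis median lies at -0.10 and the ribosomal protein median at 0.10.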

How the data were processed

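RNA was extracted with RNeasy columns and made into strand-marked libraries (NEBNext Ultra II Directional) and sequenced on an Illumina instrument, per the labels' protocols. The deposited table holds whole-number counts per gene and, beside them, TPM values per library made by the authors. Per the submitters' processing notes, featureCounts from Subread 2.0.3 and DESeq2 were used with builds mm10 and GRCm38. The aligner, annotation, strand setting and treatment of multi-mapping reads are not given in the sources used here, so genes with near-identical copies or overlapping neighbours are uncertain: 22 of the 87 share exonic bases with another gene in GENCODE M21, 5 on the same strand.

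Counts were fitted with edgeR 4.0.16 in R 4.3.3 (TMM scaling, filterByExpr by group, quasi-likelihood F test, one group mean per group over all 11 libraries) with Benjamini-Hochberg adjustment over 16420 genes and a threshold of 0.05. All CPM values are TMM-scaled. DESeq2 1.42.0 on counts and limma 3.58.1 on log2(TPM + 1) were alternatives. Tested on simulated data with 200 genes changed 2-fold in EV auxin, edgeR recovered 80.0% of them with 8 false calls. Every change called in a ribosomal protein gene was smaller than 2-fold, so that share does not apply to them. Members and lists were chosen with earlier results of these data known, so no list test was run. Genes given values were those called with the largest changes and no overlap between libraries (up to 4 in each direction per comparison), the 5 highest and 5 lowest by TPM, the stalk genes, the relatives, and up to 2 per related list. Replicate numbers were not used to pair the libraries in this fit. Depth was 13465241 to 29902246 reads, and intervals of the fit reflect the spread between libraries. Some genes that passed are not reported by name here.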

Additional observations from a re-analysis of the deposited data

How the results depend on the processing

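The number of ribosomal protein genes called and their median both moved with the processing. Counts below are in the order EV auxin against EV untreated, FL auxin against EV auxin, FL auxin against EV untreated, H373R auxin against EV auxin, H373R auxin against EV untreated and H373R auxin against FL auxin, where the reported counts are 4, 25, 26, 4, 10 and 2. With no filter on low counts they were 9, 50, 53, 16, 27 and 5. With a threshold of 0.01 they were 2, 5, 12, 0, 1 and 0. With limma on log2(TPM + 1) they were 2, 7, 16, 3, 9 and 1, with a pseudocount of 0.1 they were 2, 6, 15, 3, 9 and 1, and with no TPM filter 1, 4, 10, 0, 3 and 1. Fitting only the libraries compared gave 3, 43, 16, 35, 12 and 5. Removing the GC and length trend gave 7, 45, 45, 12, 20 and 12, and reversed Rps14 (-0.041) and Rps2 (-0.00705) in H373R auxin against EV untreated. DESeq2 gave 4, 31, 24, 6, 8 and 1, and upper quartile scaling 3, 21, 25, 4, 10 and 1. Leaving out both EV untreated replicate 1 and FL auxin replicate 2, chosen after seeing the data, gave 13, 30, 44, 26, 41 and 4. In that fit 35.2, 34, 46.8, 34.8, 55.9 and 9.76% of all tested genes passed. Of ribosomal protein genes 15.1, 34.9, 51.2, 30.2, 47.7 and 4.65% did. With the GC and length trend removed, 30.7, 36.2, 45.1, 31.3, 50 and 13.8% of all genes passed. In DESeq2 it was 17.5, 21.7, 32.3, 19.7, 39.5 and 5.51%. Shares of all genes are not given for the other settings here. Those counts are not to be read as particular to ribosomal protein genes. Over all settings other than leaving out 1 library at a time the medians moved too, given here in the same order. They ran from -0.05 to 0.04, 0.10 to 0.22, 0.11 to 0.16, 0.06 to 0.15, 0.02 to 0.10 and -0.13 to -0.02. The cause of these shifts was not tested.

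With the replicate number as a block the counts were 6, 46, 37, 12, 17 and 2. The share of all genes that passed under this block is not given. Same-numbered libraries deviated together in 3 of 15 pairs (correlation over 0.1, range -0.087 to 0.282). Differently numbered libraries did so in 1 of 30 pairs (range -0.197 to 0.134). Whether the numbers pair the libraries was not tested, and the labels do not say.

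Leaving out 1 library at a time gave 0 to 6, 3 to 54, 12 to 56, 0 to 15, 2 to 29 and 0 to 8 genes in the same order. The share of all tested genes that passed moved in these fits too. It ran from 28.9 to 47.2% for FL auxin against EV untreated, 36.8 to 54.7% for H373R auxin against EV untreated and 3.12 to 14.2% for H373R auxin against FL auxin. The ranges of counts are therefore not to be read as particular to ribosomal protein genes. The medians of the ribosomal protein genes then ran, in the same order, from -0.08 to 0.04, 0.11 to 0.25, 0.08 to 0.20, 0.02 to 0.17, 0.02 to 0.09 and -0.15 to -0.02. The share of reads ran from 2.74 to 2.91% in EV untreated, 2.75 to 2.98% in EV auxin, 3.05 to 3.26% in FL auxin and 3.01 to 3.07% in H373R auxin. By summed TPM it was 6.14, 6.15, 6.63 and 6.39% in those groups. With the 4 genes outside the naming rule the share of reads was 3.02% in EV untreated, 3.06% in EV auxin and 3.25% in H373R auxin. The FL auxin value for that setting is not given here. Without the relatives it was 2.74% in EV untreated, 2.78% in EV auxin, 3.06% in FL auxin and 2.96% in H373R auxin. Over 46 named gene results and 26 settings, 980 values stayed called in the same direction, 214 fell below the threshold and 2 reversed. EV auxin had 2 libraries, which limits every comparison with it.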

Other observations

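Known regulators of ribosomal protein expression were counted in the same fit (24 tested). In EV auxin against EV untreated 3 were higher and 6 lower, where 11.3% of all tested genes were higher and 9.4% lower. Mlst8, a subunit of the mTOR complexes, rose by 0.65 ± 0.077 on the log2 scale (SE, edgeR adjusted p = 1.97e-05), and Myc, a transcription factor that raises ribosome production, by 0.61 ± 0.080 (edgeR adjusted p = 5.57e-05). Mycn, its relative, went the other way (-0.21 ± 0.058, edgeR adjusted p = 0.0164), from a mean of 172 to 149 CPM. The ETS factor Gabpa fell by 0.30 (edgeR adjusted p = 0.00784). Mycn and Gabpa were chosen after their values were seen. In H373R auxin against EV auxin 2 were higher and 8 lower, where 10% of all tested genes were higher and 11.7% lower. Larp1, which binds TOP mRNAs, fell by 0.41 there (edgeR adjusted p = 8.45e-05) and by 0.33 in FL auxin against EV auxin (edgeR adjusted p = 2.71e-04). Among ribosome biogenesis genes, Bysl, a small subunit assembly factor, fell by 0.93 ± 0.078 in EV auxin against EV untreated (edgeR adjusted p = 5.5e-07) and was higher by 0.55 in FL auxin against EV auxin (edgeR adjusted p = 1.86e-04).

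Across the 83 protein-coding genes, the FL auxin against EV auxin fold change correlated with mean log2 CPM at r = 0.37, with GC content at r = -0.07 and with log length at r = 0.00, given as descriptions because all values come from the same libraries. The 83 include Rpl3l, which had both the lowest mean TPM (4.78) and the lowest log2 fold change (-0.86). The correlation without Rpl3l was not computed. The median log2 fold change was 0.18 in the 43 tested members with higher mean TPM and 0.17 in the 43 with lower mean TPM.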
